A study of Caenorhabditis elegans with 15 samples.

Results

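The cell cycle and DNA replication genes described here are 36 genes of Caenorhabditis elegans, each found in the count table by matching its symbol to a WormBase identifier in the WBcel235 annotation. All 36 matched, out of 46739 genes in the table, and all 36 passed the filter on low counts that 16888 genes passed. They fall into 9 cyclin, cyclin-dependent kinase (CDK) and Cdc25 phosphatase genes, 10 genes of origin licensing, 4 of DNA synthesis, 7 of mitotic kinases and chromosomal passengers, 3 of centromere and kinetochore, and 3 cullins. Counts of a member in a library ran from 550 (bir-1) to 33020 (rnr-2), so counting error is small for each. Of the members, 14 lie on chromosome III and 10 on chromosome I, and 0 lie on X, where 12.9% of the tested genes are.

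RNA was sequenced from whole adult worms, hand-picked 24 h after the middle of the fourth larval stage, in 5 genotypes with 3 libraries each. The genotypes are wild type (wt), a knock-out of gld-2 (gld2), and 3 labelled as double knock-outs of gld-2 and one of ccf-1 (gld2-ccf1), ccr-4 (gld2-ccr4) or parn-1 (gld2-parn1). The labels name no alleles and no balancer, and they do not say whether the libraries of a genotype came from separate cultures, so the p-values measure only the spread between these libraries. GLD-2 is a cytoplasmic poly(A) polymerase, which lengthens the poly(A) tails of mRNAs in the germline, and CCF-1, CCR-4 and PARN-1 are deadenylases, which shorten such tails. The series title places the comparisons in early oogenesis.

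In an adult hermaphrodite most somatic cells have stopped dividing, and cell division goes on in the distal germline, whose cells then enter meiosis and become oocytes. The oocytes are loaded with mRNAs for the division machinery that the embryo uses. Licensing factors place the MCM helicase on replication origins, CDKs with their cyclins start DNA synthesis and later mitosis, and the Aurora, Polo and Bub kinases act with the kinetochore to separate the chromosomes. Cullins are scaffolds of ubiquitin ligases that remove proteins at set points of the cycle.

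Library totals ran from 28065395 to 39445449 counts, and levels are given as CPM, the usual depth-scaled count, over totals scaled by TMM (trimmed mean of M values). Nuclear ribosomal RNA took over 4% of the counts in 4 libraries and 14.3% in gld2-ccf1 replicate 2, which also stood apart in several members. Transcripts of gld-2 averaged 211 ± 32.1 CPM in wt and 53.7 ± 0.854 CPM in gld2 (SD, n = 3 each). Those of ccr-4 averaged 467 ± 2.87 CPM in wt, 281 ± 17.0 CPM in gld2 and 170 ± 7.45 CPM in gld2-ccr4. Their log2 change was -0.73 in gld2 against wt and also -0.73 in gld2-ccr4 against gld2. A fall of this size thus stood also where the label names no knock-out of ccr-4, so it is no sure check of the gld2-ccr4 label. Transcripts of ccf-1 and parn-1 were not reduced in the libraries labelled gld2-ccf1 and gld2-parn1: ccf-1 took 1.65% to 4.97% of the counts in gld2-ccf1 against 0.00303% to 0.00365% in gld2, and parn-1 stood at 60.6 ± 4.74 CPM in gld2-parn1 against 50.6 ± 4.15 CPM in gld2. For the libraries labelled gld2-ccf1 and gld2-parn1 the counts go against or do not check the label. These names therefore stand throughout for the libraries labelled so, and not for a loss of ccf-1 or parn-1.

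In wt the summed level of the members was 11330, 12010 and 11170 CPM. It was 8902, 8832 and 8924 CPM in gld2, 7403, 8962 and 8131 CPM in gld2-ccf1, 7946, 7964 and 7973 CPM in gld2-ccr4, and 8394, 8657 and 8796 CPM in gld2-parn1. Each of the 12 mutant libraries was below each wt library. Per kilobase of exon, the highest member in wt was rnr-2, the small subunit of ribonucleotide reductase, at 653 ± 42.9 CPM per kb. The B-type cyclin cyb-3 and pcn-1, which encodes the sliding clamp PCNA, followed at 405 ± 27.6 and 405 ± 25.6 CPM per kb, and cdk-2 was lowest at 16.6 ± 1.5 CPM per kb.

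**Figure D1:**
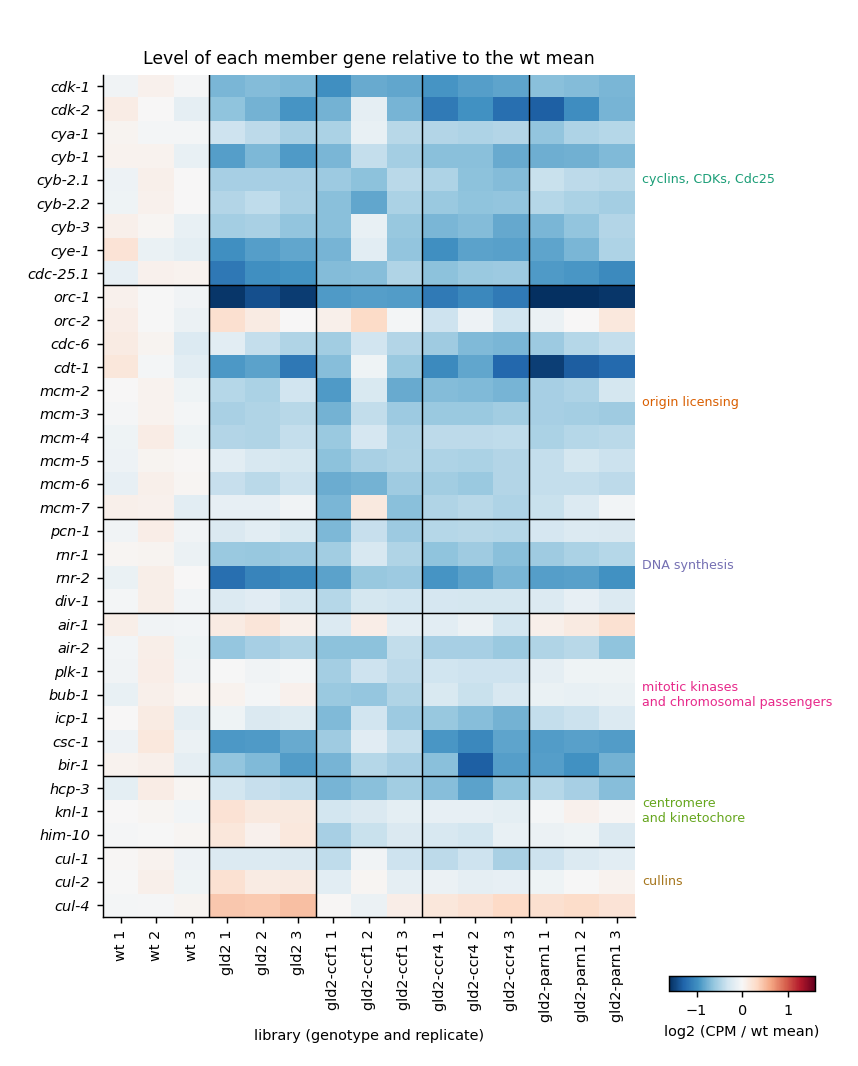
Level of each of the 36 members (rows, grouped by role) in each of the 15 libraries (columns), as log2 of its CPM over its mean in wt; blue is below and red above the wt mean. The row of orc-1 is dark blue in gld2 (83.7 to 92.6 CPM) and in gld2-parn1 (77.1 to 83.3 CPM), against 236 to 257 CPM in wt, and gld2-ccf1 replicate 2 differs from its 2 partner libraries in mcm-7, cyb-3 and cdt-1.

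The comparison of gld2 with wt asks what the loss of the polymerase does to these transcripts. All 9 cyclin, CDK and Cdc25 genes, 8 of 10 licensing genes and all 4 DNA synthesis genes fell, by up to 2.82-fold for orc-1, while bub-1, plk-1 and him-10, of the spindle checkpoint, mitosis and the kinetochore, gave log2 changes of -0.03 to 0.14 that did not pass the test, and cul-4 rose 1.36-fold. By edgeR's quasi-likelihood test at an adjusted p under 0.05, 26 of 36 members were lower in gld2, beside 20.2% of all tested genes, and 3 were higher, beside 28.8% of all tested genes; the split was 12 lower and 5 higher when the libraries were scaled to somatic genes, and 8 lower and 13 higher when they were scaled to germline genes. The median change of the members was -0.42 on the log2 scale, and that of all tested genes was 0.14. Scaling to 78 germline genes raised the median of all genes by 0.46 and called 6.28% of them lower and 51.3% higher, and scaling to 117 somatic genes raised it by 0.22 and called 9.18% lower and 34.4% higher. Calls lost with somatic scaling were those of cya-1, cyb-2.1, cyb-2.2, cdc-6, mcm-2 to mcm-6, pcn-1, div-1, air-2, hcp-3 and cul-1. In whole animals, fewer cells of a type and less RNA per cell cannot be told apart.

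All 9 cyclin, CDK and Cdc25 genes fell in gld2, beside 20.2% of all tested genes, with a median of -0.72. With germline scaling 4 of them (cdc-25.1, cdk-1, cyb-1 and cye-1) were lower and 0 were higher. Beside these stood 6.28% of all tested genes lower and 51.3% higher. The phosphatase gene cdc-25.1, whose product activates CDKs, stood at 397, 456 and 451 CPM in wt and at 197, 220 and 224 CPM in gld2. The groups did not overlap, and cdc-25.1 fell by 1.02 in log2 units (SE 0.07, edgeR adjusted p = 4.89e-10). The mitotic kinase gene cdk-1 stood at 307, 336 and 315 CPM in wt and at 192, 197 and 194 CPM in gld2. All gld2 libraries were below all wt libraries, with a fall by 0.72 (SE 0.06, adjusted p = 4.87e-09). The cyclin E gene cye-1 fell by 0.89 and its partner kinase gene cdk-2 by 0.78, from 38.7 ± 3.49 to 22.6 ± 2.33 CPM. The S phase cyclin gene cya-1 changed least of this group and fell by 0.42; with germline scaling its value was 0.04.

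Among the B-type cyclins, cyb-1 fell by 0.83 and cyb-3 by 0.56, while cyb-2.1 and cyb-2.2 fell by 0.53 and 0.47. The latter are close paralogs whose reads may have been shared in counting, so their separate values are uncertain. Per kilobase, cyb-3 held the largest share of B-type cyclin transcripts in each genotype, 42.2% ± 1.56 in wt and 42.9% ± 0.596 in gld2. The share of cyb-1 was 21.6%, 21.1% and 20.2% in the wt libraries and 17.1%, 18.4% and 17.5% in the gld2 libraries. It was thus lower in all gld2 libraries, and it stood at 20.7% ± 0.487 in gld2-ccf1 and 20.7% ± 0.394 in gld2-ccr4. Such shares do not depend on how the libraries were scaled.

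Of the origin licensing genes, 8 of 10 fell in gld2, beside 20.2% of all tested genes, with a median of -0.40. With germline scaling orc-1 and cdt-1 were lower, and orc-2 and mcm-5 were higher. Beside these stood 6.28% of all tested genes lower and 51.3% higher. The largest change of any member was that of orc-1, the largest subunit of the origin recognition complex. It stood at 257, 245 and 236 CPM in wt and at 83.7, 92.6 and 85.8 CPM in gld2. Every gld2 library held less than any wt library, and orc-1 fell by 1.49 (SE 0.06, adjusted p = 5.81e-13), or by 1.03 with germline scaling. By contrast orc-2, which encodes another subunit of the same complex, was at 52.3 ± 3.64 CPM in wt and 57.5 ± 4.92 CPM in gld2. That difference of 0.14 did not pass the test, and its interval (1.96 SE to each side) ran from -0.07 to 0.34.

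The helicase loaders differed too. Transcripts of cdt-1 fell by 0.96 (SE 0.15), from 70.9 ± 8.64 to 36.4 ± 3.67 CPM, and those of cdc-6 by 0.34 (SE 0.10), from 114 ± 13.9 to 89.8 ± 9.95 CPM with overlapping libraries, a call lost without wt replicate 1. The 6 genes of the MCM helicase, whose products form a ring of 1 copy each, summed to 1290 ± 56.4 CPM per kb in wt and 1020 ± 26.7 CPM per kb in gld2. Of them, mcm-3 stood at 597, 629 and 594 CPM in wt and at 422, 435 and 446 CPM in gld2. The groups were well apart, and mcm-3 fell by 0.48 (SE 0.07, edgeR adjusted p = 9.87e-06). With somatic scaling mcm-3 gave -0.26 (SE 0.13) and with germline scaling -0.02 (SE 0.06), and neither was called. The SE was thus larger with somatic scaling than with TMM. Changes of mcm-2, mcm-4, mcm-5 and mcm-6 lay between -0.44 and -0.24 and were called, whereas mcm-7 gave -0.11 with an interval from -0.49 to 0.27. The call of mcm-2 was lost without wt replicate 1 or 2 and without gld2 replicate 1 or 2. No MCM gene was called lower with somatic or with germline scaling.

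The 4 DNA synthesis genes fell in gld2, beside 20.2% of all tested genes. With germline scaling rnr-2 was lower, and pcn-1 and div-1 were higher, beside 6.28% of all tested genes lower and 51.3% higher. Transcripts of rnr-2 were at 843, 962 and 909 CPM in wt and at 393, 434 and 446 CPM in gld2. The highest gld2 library was below the lowest wt library, with a fall by 1.09 (SE 0.08, adjusted p = 5.70e-10). The gene of the large subunit of the same enzyme, rnr-1, stood at 654, 660 and 600 CPM in wt and at 424, 419 and 426 CPM in gld2. It fell by 0.59 (SE 0.07), also with no overlap. The smaller falls were those of pcn-1, by 0.21 and not called without wt replicate 2, gld2 replicate 1 or gld2 replicate 3, and of div-1, a subunit gene of DNA polymerase alpha, by 0.24.

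Of the mitotic kinase and chromosomal passenger genes, 3 of 7 fell in gld2 and 0 rose, beside 20.2% and 28.8% of all tested genes. With germline scaling csc-1 was lower, and air-1, plk-1, bub-1 and icp-1 were higher. Beside these stood 6.28% of all tested genes lower and 51.3% higher with germline scaling. The passenger complex carries the Aurora B kinase to centromeres and to the spindle midzone. Its subunit gene csc-1 stood at 60.1, 71.6 and 59.8 CPM in wt and at 33.8, 34.1 and 36.6 CPM in gld2, a fall by 0.87 (SE 0.10, adjusted p = 4.20e-07). The kinase gene air-2 stood at 110, 121 and 108 CPM in wt and at 73.4, 78.5 and 80.6 CPM in gld2, a fall by 0.55 (SE 0.08). In both genes the groups did not overlap, but air-2 gave -0.32 (SE 0.15) with somatic and -0.09 (SE 0.08) with germline scaling and was called in neither. The survivin-like gene bir-1 fell by 0.74, while icp-1, the INCENP scaffold of the complex, gave -0.17 with an interval from -0.34 to 0.01. Per kilobase, icp-1 took 34.9%, 34.3% and 33.3% of the transcripts of these 4 genes in wt and 44.8%, 41.5% and 42.0% in gld2, a higher share in all gld2 libraries.

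The other mitotic kinases were not called. The Polo kinase gene plk-1 stood at 575 ± 36.4 CPM in wt and 562 ± 9.32 CPM in gld2 (interval from -0.15 to 0.09). The checkpoint kinase gene bub-1 stood at 540 ± 37.1 and 553 ± 20.4 CPM (interval from -0.09 to 0.15). The Aurora A gene air-1 gave 0.13 with an interval from -0.02 to 0.29. For these 3 genes the wt and gld2 libraries overlapped.

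Centromere and kinetochore genes split. The centromeric histone gene hcp-3, which encodes the CENP-A of this worm, stood at 112, 136 and 128 CPM in wt and at 102, 96.4 and 94.6 CPM in gld2. It fell by 0.36 (SE 0.08, adjusted p = 0.0013), or gave 0.10 with germline scaling. The kinetochore scaffold gene knl-1 stood at 330, 337 and 320 CPM in wt and at 386, 366 and 367 CPM in gld2. It rose by 0.18 (SE 0.06, adjusted p = 0.0101) with no overlap, a call lost without the filter on low counts and without the libraries above 4% ribosomal RNA. With germline scaling knl-1 gave 0.64. The Nuf2 gene him-10 gave 0.14 with an interval from -0.01 to 0.28 and was not called. It was called higher with somatic scaling (0.36, edgeR adjusted p = 0.0304) and with germline scaling (0.59, edgeR adjusted p = 3.13e-07). The medians of all tested genes were likewise 0.36 with somatic and 0.59 with germline scaling, so him-10 lay at these medians. The germline median also stands beside the 0.64 of knl-1 and the 0.10 of hcp-3.

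Cullin genes split as well. The gene cul-4, whose ligase is known to remove CDT-1 after licensing in this worm, stood at 177, 179 and 187 CPM in wt and at 245, 243 and 253 CPM in gld2. All gld2 libraries were above all wt libraries, and cul-4 rose by 0.45 (SE 0.06, adjusted p = 4.39e-06), with 0.90 under germline scaling. The gene cul-1, the scaffold of SCF ligases, stood at 200, 205 and 186 CPM in wt and at 169, 169 and 168 CPM in gld2, a fall by 0.23 (SE 0.08, adjusted p = 0.0252) that became a rise by 0.23 with germline scaling. The median of all tested genes was 0.59 with germline scaling. Without wt replicate 3 cul-1 was still called, and without any other 1 of the wt and gld2 libraries it was not. In cul-2, which acts in meiosis and early mitosis, the rise was 0.18 (SE 0.06, adjusted p = 0.0279), a call lost with RLE scaling, with DESeq2, without the low count filter, without the libraries above 4% ribosomal RNA and without wt replicate 3 or gld2 replicate 1.

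**Figure D2:**
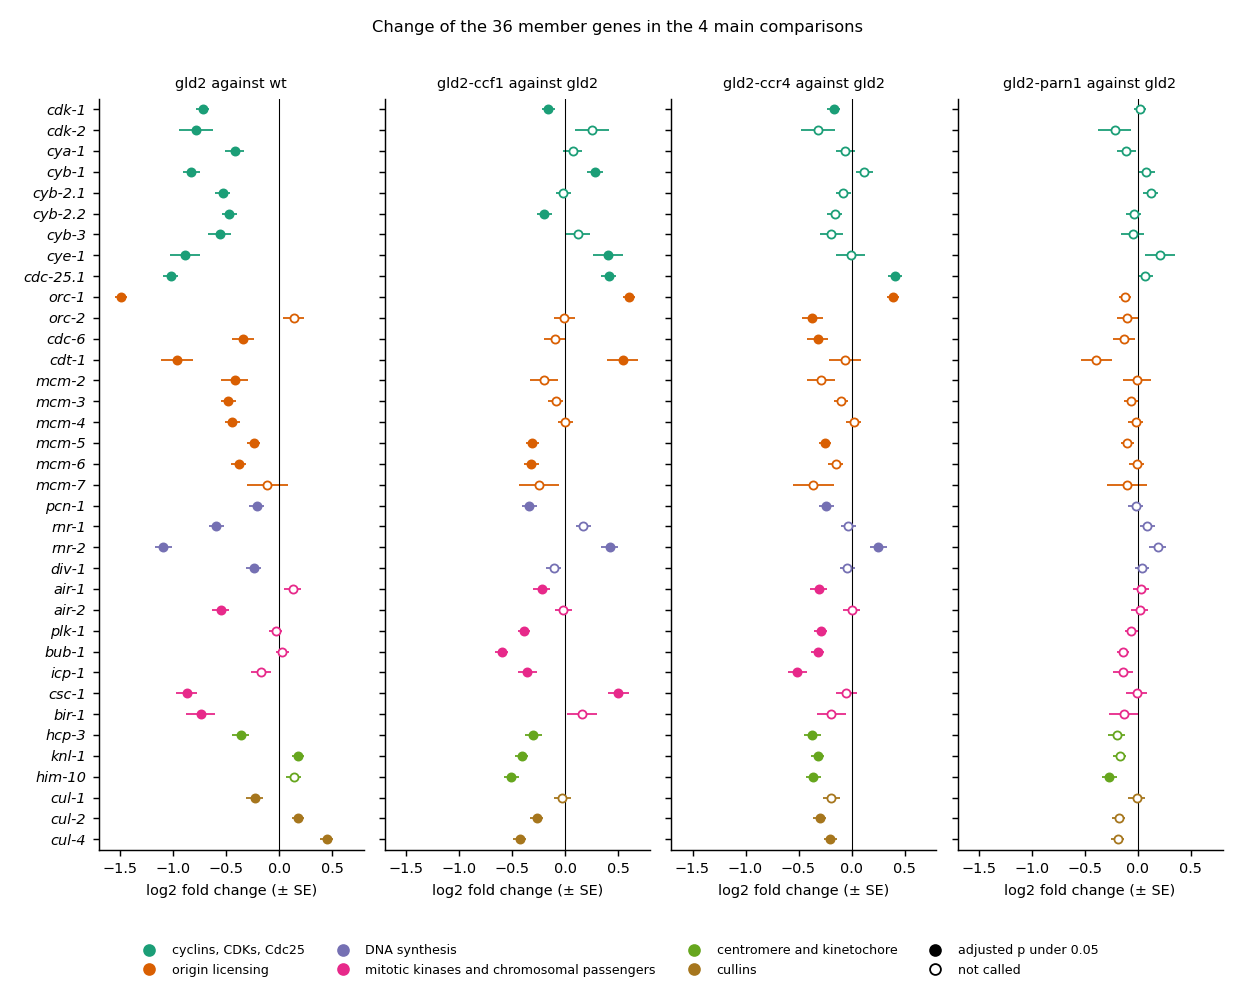
Log2 fold change (points) with its SE (bars) of each member in gld2 against wt and in each double mutant against gld2; filled points passed an adjusted p under 0.05 and colours mark the roles. In gld2 against wt 26 members lie left of 0 and are filled, and in gld2-parn1 against gld2 the filled point is him-10 alone.

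Next, the libraries labelled as each double mutant were compared with gld2. The labels pose the question of what a second knock-out, of a deadenylase, changes beside that of gld-2. For gld2-ccf1 and gld2-parn1 the transcripts of the second target were not reduced, and RNA counts do not show whether its product was lost. No direction below is assigned to the loss of a deadenylase. These 3 comparisons share the gld2 libraries, so their values are set side by side and no overlap between them is given. Of 31 muscle genes 22, 24 and 17, and of 28 intestine genes 16, 14 and 12, were higher than in gld2, in the order gld2-ccf1, gld2-ccr4, gld2-parn1. Over all tested genes 19.8%, 11.1% and 4.90% were higher in that order. Scaling to somatic genes lowered the median of all genes by 0.37, 0.56 and 0.42 in the same order. Germline scaling moved it by at most 0.04.

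In the libraries labelled gld2-ccf1 members changed in both directions, also within roles. All 3 centromere and kinetochore genes fell, the mitotic group had 4 lower (bub-1, by 1.51-fold, plk-1, icp-1 and air-1), 1 higher (csc-1) and 2 not called (air-2 and bir-1), and orc-1, cdt-1, csc-1, rnr-2, cdc-25.1, cye-1 and cyb-1 rose, by up to 1.52-fold for orc-1. Of 36 members, 7 (19.4%) were higher than in gld2, near the 19.8% of all tested genes called higher. Another 14 (38.9%) were lower, beside 16.7% of all tested genes. With germline scaling the counts were 7 and 14, beside 17.4% of all genes higher and 18.1% lower. With somatic scaling they were 0 and 24, beside 7.20% of all genes higher and 31.2% lower. Without gld2-ccf1 replicate 2 the count of higher members was 4, since cdt-1, cyb-1 and cye-1 were no longer called, and mcm-2, mcm-3 and mcm-7 were then called lower.

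Levels of orc-1 in gld2-ccf1 were 131, 134 and 132 CPM, above all gld2 libraries (83.7 to 92.6 CPM) and below all wt libraries (236 to 257 CPM). The rise over gld2 was 0.60 (SE 0.06, adjusted p = 4.44e-07), and 0.58 without replicate 2. The passenger gene csc-1 rose by 0.50 (SE 0.10) to 42.9, 56.3 and 48.9 CPM, again between gld2 and wt. The rises of rnr-2, to 498, 597 and 603 CPM, and of cdc-25.1, to 268, 271 and 312 CPM, were 0.42 (SE 0.08) and 0.41 (SE 0.07). Of the 7 rises, those of orc-1, csc-1, rnr-2 and cdc-25.1 passed the test also without each library in turn, without the low count filter, with RLE scaling, with DESeq2 and with the replicate block; with somatic scaling none of the 7 was called. For cdt-1 the libraries read 44.2, 67.5 and 47.1 CPM, and the change was 0.54 with replicate 2 and 0.32 (adjusted p = 0.0575) without it.

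The checkpoint kinase gene bub-1 stood at 358, 351 and 387 CPM in gld2-ccf1, against 563, 529 and 566 CPM in gld2 and 498, 569 and 553 CPM in wt. All 3 libraries were below those of both other genotypes, and bub-1 fell by 0.60 against gld2 (SE 0.06, adjusted p = 4.88e-07). The kinetochore gene knl-1 stood at 268, 281 and 294 CPM, below the gld2 libraries (366 to 386 CPM) and the wt libraries (320 to 337 CPM). It fell by 0.41 (SE 0.06, adjusted p = 1.13e-05). All 3 centromere and kinetochore genes fell, him-10 by 0.51 and hcp-3 by 0.30, and 4 of 7 mitotic kinase and passenger genes fell, among them plk-1 by 0.39, icp-1 by 0.36 and air-1 by 0.22. These calls, except that of air-1, held with the libraries left out in turn, with RLE, germline and somatic scaling and with DESeq2.

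Replication genes changed in both directions in gld2-ccf1. Next to the rises above, mcm-5 fell by 0.31, mcm-6 by 0.32 and pcn-1 by 0.34 (SE 0.06 to 0.07), from 346 ± 10.4 to 274 ± 33.5 CPM for pcn-1. The helicase gene mcm-7 read 310, 576 and 324 CPM in gld2-ccf1 and 471, 470 and 496 CPM in gld2. Its change was -0.25 (adjusted p = 0.356) with replicate 2, and -0.60 (adjusted p = 7.36e-06) without it. In replicate 2 the share of mcm-7 among MCM transcripts per kilobase was 22.9%, beside 16.3% and 15.4% in its partners. Among cullins, cul-4 fell by 0.43, to 184, 170 and 195 CPM, which overlaps the wt range of 177 to 187 CPM, and cul-2 fell by 0.27.

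**Figure D3:**
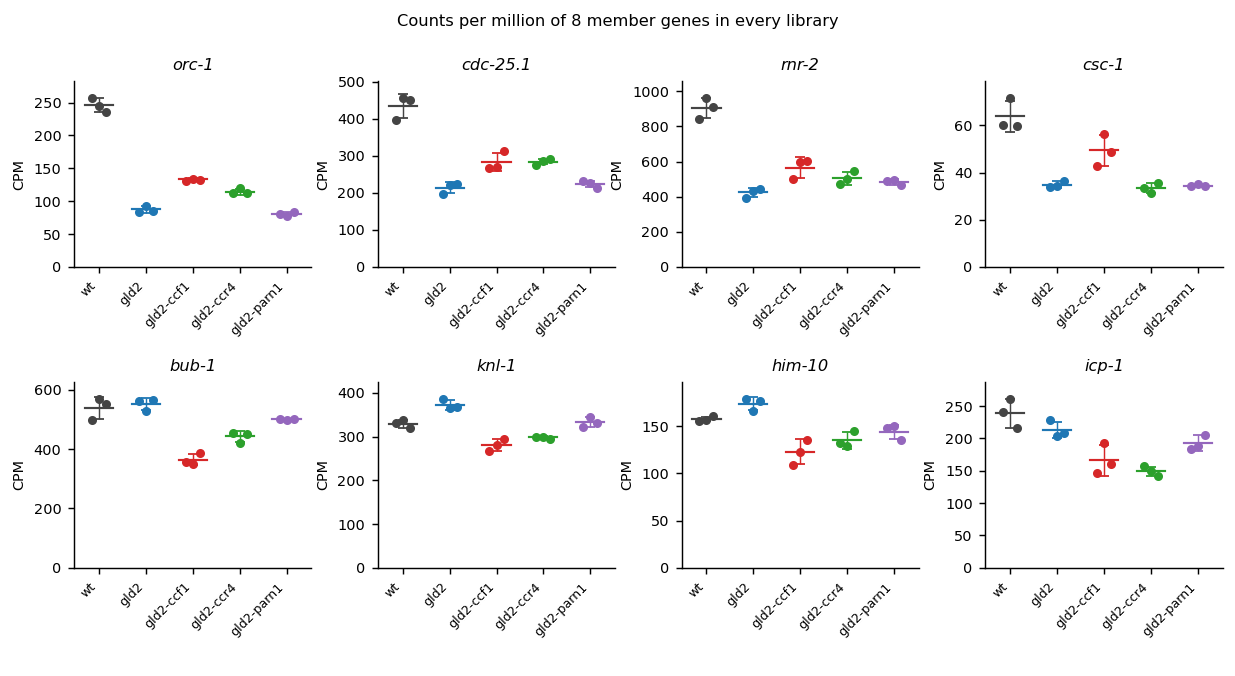
CPM of 8 members in every library (points), with the mean (line) and SD (bar) of each genotype; the vertical axes start at 0. The upper row (orc-1, cdc-25.1, rnr-2 and csc-1) is highest in wt, and the lower row shows bub-1, knl-1, him-10 and icp-1, where gld2 lies nearer to wt than gld2-ccf1 does.

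In gld2-ccr4 3 of 36 members (8.33%) were higher than in gld2, beside 11.1% of all tested genes. Another 14 (38.9%) were lower, beside 9.23% of all tested genes. With germline scaling the counts were 3 and 12, beside 10.9% of all genes higher and 8.06% lower. With somatic scaling they were 0 and 34, beside 2.82% of all genes higher and 46.6% lower. The risers were cdc-25.1, orc-1 and rnr-2. Levels of orc-1 were 112, 120 and 112 CPM, above gld2 and below wt in every library, with a rise by 0.39 (SE 0.06, adjusted p = 0.000181). Those of cdc-25.1 were 276, 287 and 290 CPM, with a rise by 0.41 (SE 0.07). Under somatic scaling orc-1 and cdc-25.1 gave -0.18 and -0.15 and were not called, and rnr-2 was called lower at -0.32. The TMM call of rnr-2 was also lost without gld2 replicate 1 or 2 and without gld2-ccr4 replicate 2 or 3.

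The genes that fell in gld2-ccr4 included all 3 centromere and kinetochore genes and 4 of 7 mitotic kinase and passenger genes, and these counts held with RLE and germline scaling. The scaffold gene icp-1 stood at 157, 149 and 142 CPM, below all gld2 libraries (203 to 228 CPM) and all wt libraries (216 to 261 CPM). It fell by 0.51 (SE 0.09, adjusted p = 0.00043). The kinetochore gene knl-1 stood at 300, 300 and 294 CPM, also below both, and fell by 0.32 (SE 0.06, adjusted p = 0.00034). Falls of hcp-3 (0.37), him-10 (0.36), bub-1 (0.32), air-1 (0.31) and plk-1 (0.29) were of similar size.

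Other licensing genes fell in gld2-ccr4. The subunit gene orc-2 fell by 0.37 to 44.3 ± 4.61 CPM, cdc-6 by 0.32 to 71.8 ± 4.53 CPM, and mcm-5 by 0.25 to 374 ± 4.71 CPM. The sum of the MCM genes was 894 ± 8.21 CPM per kb, beside 886 ± 128 CPM per kb in gld2-ccf1. Without gld2 replicate 1 or without gld2-ccr4 replicate 3 the count of lower members was 9; orc-2, cdc-6, cdk-1 and pcn-1 were among the calls lost in both cases. The call of bub-1, plk-1, icp-1, hcp-3, knl-1, him-10, mcm-5 and cul-2 passed in each of the runs that left out 1 library.

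In gld2-parn1 few members differed from gld2 by the test. By edgeR 0 were higher, beside 4.90% of all tested genes called higher, and 1 was lower, beside 4.90% of all tested genes called lower; with somatic scaling 33 were lower, beside 35.8% of all genes. At an unadjusted p under 0.05 1 were higher, and DESeq2 called 0 higher. The one call was him-10, at 148, 150 and 135 CPM against 179, 166 and 177 CPM in gld2. The libraries did not overlap, and him-10 fell by 0.27 (SE 0.07, adjusted p = 0.0261), a call lost with RLE scaling and without gld2 replicate 1, gld2 replicate 3, gld2-parn1 replicate 1 or gld2-parn1 replicate 3. The next 2 by adjusted p were cul-4, at 217, 222 and 210 CPM with a change of -0.19 (adjusted p = 0.0514), and knl-1, at 322, 344 and 332 CPM with a change of -0.17 (adjusted p = 0.0635). Levels of orc-1 were 80.9, 77.1 and 83.3 CPM, below the gld2 libraries, and the change of -0.12 had an interval from -0.24 to 0.00. That of cdt-1 was -0.39 with an interval from -0.68 to -0.10 and an adjusted p of 0.112.

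Against wt, the libraries labelled as each double mutant had most members lower under TMM. In gld2-ccf1 31 of 36 were lower, beside 19.7% of all tested genes, and 0 were higher, beside 32.1% of all tested genes. With germline scaling 10 were lower and 5 higher, beside 5.79% and 53.4% of all tested genes. At an unadjusted p under 0.05 0 were higher in gld2-ccf1, and DESeq2 called 0 higher. In gld2-ccr4 31 were lower, beside 20.8% of all tested genes, and 1 was higher, beside 30.0% of all tested genes. With germline scaling 13 were lower and 8 higher, beside 5.22% and 55.3% of all tested genes. In gld2-parn1 27 were lower, beside 21.5% of all tested genes, and 1 was higher, beside 28.9% of all tested genes. With germline scaling 9 were lower and 11 higher, beside 6.34% and 51.7% of all tested genes. The higher gene in gld2-ccr4 and in gld2-parn1 was cul-4, a call lost with somatic scaling. No lower call was lost with somatic scaling. The calls gained there were all lower: mcm-7 in gld2-ccf1, orc-2, mcm-7, air-1 and cul-2 in gld2-ccr4, and mcm-7, bub-1 and him-10 in gld2-parn1. Of all tested genes 21.5%, 32.9% and 26.4% were lower with somatic scaling in that order, and 26.2%, 20.5% and 21.9% higher. Under TMM orc-2, mcm-7, air-1 and cul-2 were not called against wt in all 3 double mutants. The kinetochore genes knl-1 and him-10 and the kinases plk-1 and bub-1 were called lower than wt in gld2-ccf1 and gld2-ccr4, and in gld2-parn1 they were not called; with germline scaling these 4 were called higher than wt in gld2-ccr4 and in gld2-parn1, and in gld2-ccf1 knl-1 was called higher, bub-1 lower, and plk-1 and him-10 were not called. The call of knl-1 in gld2-ccr4 against wt was also lost without the low count filter, without wt replicate 1 or 2 and without each gld2-ccr4 library in turn, and that of him-10 without gld2-ccr4 replicate 1 or 2.

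Direct tests between the libraries labelled as double mutants gave differences between gld2-ccf1 and the others. Against gld2-ccr4, 7 members were higher in gld2-ccf1, beside 14.4% of all tested genes, and 2 were lower, beside 11.6% of all tested genes. The largest were cdt-1 (0.60), cdk-2 (0.57) and csc-1 (0.56) on the higher side, and bub-1 (-0.28) and cul-4 (-0.23) on the lower side. Without gld2-ccf1 replicate 2 the counts were 3 and 4, and without gld2-ccr4 replicate 3 they were 2 and 1. In the run without gld2-ccf1 replicate 2, cdt-1 gave 0.38 and csc-1 0.45. There cdk-2 gave 0.34 and was no longer called (edgeR adjusted p = 0.106). Without gld2-ccr4 replicate 1 the higher members were 4, and without gld2-ccf1 replicate 3 the lower ones were 4. The split of higher and lower was 12 and 0 with somatic, 5 and 5 with germline, and 4 and 3 with RLE scaling. Over all tested genes the shares were 19.8% and 4.7%, 11.3% and 14.1%, and 12.0% and 13.8% in that order. The calls of cdt-1, csc-1 and bub-1 passed in each of the runs that left out 1 library.

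Against gld2-parn1, 7 members (19.4%) were higher in gld2-ccf1, near the 20.0% of all tested genes called higher. Another 10 (27.8%) were lower, beside 17.2% of all tested genes. The higher ones were led by cdt-1 (0.93), orc-1 (0.72) and csc-1 (0.51), and the lower ones by bub-1 (-0.46), plk-1 (-0.33), mcm-6 (-0.31) and pcn-1 (-0.31). Without gld2-ccf1 replicate 2 the count of higher members was 4. The split was 5 and 1 with somatic, 6 and 12 with germline, and 5 and 14 with RLE scaling. Shares of all tested genes were 17.6% and 12.1%, 18.3% and 17.8%, and 16.6% and 19.8% in that order. Between gld2-ccr4 and gld2-parn1, orc-1 (0.51) and cdc-25.1 (0.34) were higher in gld2-ccr4, beside 7.34% of all tested genes, and icp-1, air-1, plk-1 and cdk-1 were lower, beside 5.95% of all tested genes. Those 4 lower calls became 2 without gld2-ccr4 replicate 2, gld2-ccr4 replicate 3 or gld2-parn1 replicate 2, and 0 without gld2-parn1 replicate 3. The split of higher and lower was 0 and 3 with somatic and 2 and 3 with germline scaling. Beside these stood 2.95% and 7.27% of all tested genes with somatic and 8.15% and 4.89% with germline scaling.

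**Figure D4:**
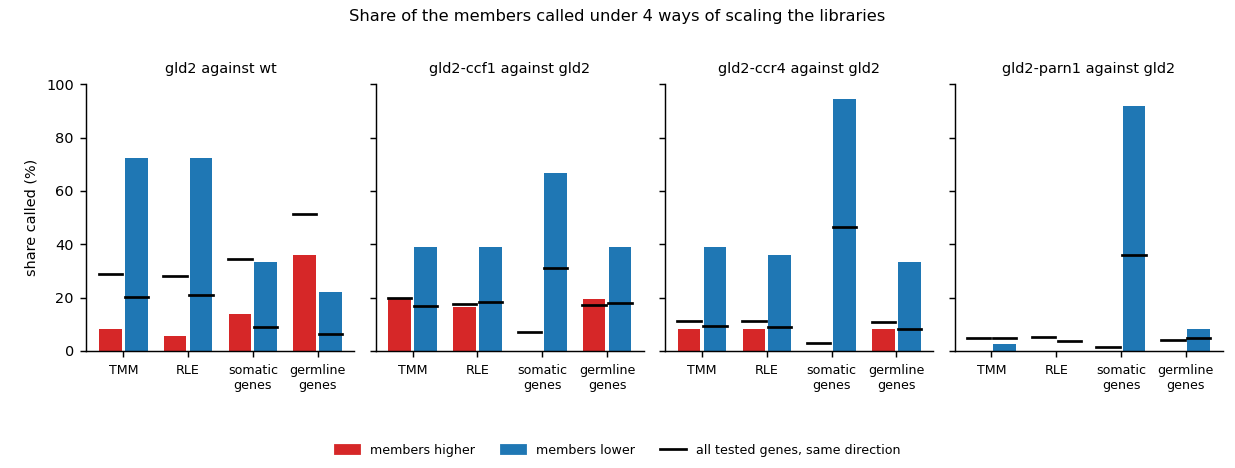
Share of the 36 members called higher (red) and lower (blue) at an adjusted p under 0.05 in the 4 main comparisons, under TMM, RLE, somatic gene and germline gene scaling; black lines give the share of all tested genes called in the same direction. Between gld2 and wt the lower members number 26 under TMM and 8 under germline scaling, and in gld2-parn1 against gld2 33 are lower under somatic scaling.

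Other genes of the same pathways were taken from 3 lists of 35 cell cycle regulators, 36 replication genes and 61 chromosome segregation genes, all of which were tested. Between gld2 and wt, 21 of the regulators were lower and 4 higher (median -0.31), 22 of the replication genes were lower and 4 higher (median -0.35), and 26 of the segregation genes were lower and 11 higher (median -0.14). Over all tested genes 20.2% were lower and 28.8% higher. With germline scaling the counts lower and higher were 6 and 16, 9 and 16, and 9 and 36 in the same order of lists, and with somatic scaling 9 and 6, 10 and 7, and 12 and 15. Of the regulators, the checkpoint kinase gene chk-1 fell from 154 ± 7.83 to 81.0 ± 3.94 CPM, by 0.92, and clk-2 fell by 0.71. The CDK-activating kinase gene cdk-7 rose by 0.41. The Cdc25 paralog cdc-25.4 had 0 counts in the 3 wt libraries and 253 in the 3 gld2 libraries, at least 68.7-fold higher against a floor of 3 counts over the wt group.

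Of the replication genes, the primase subunit gene pri-2 fell from 176 ± 6.22 to 98.6 ± 3.11 CPM, by 0.84, and the clamp loader gene rfc-3 by 0.72. In the same complex as the latter, rfc-1 rose from 284 ± 12.9 to 447 ± 9.29 CPM, by 0.65, and the topoisomerase gene top-1 rose by 0.40. Of the segregation genes, the cohesin gene scc-3 fell by 0.76 and the anaphase-promoting complex gene apc-11 by 1.26. The condensin gene mix-1 rose by 0.52 and emb-30, another subunit gene of the anaphase-promoting complex, by 0.57.

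Against gld2, 32 of the 61 segregation genes were lower in gld2-ccf1 and 7 higher (median -0.22), and 23 were lower in gld2-ccr4 and 1 higher (median -0.16). In gld2-parn1 7 were lower and 0 higher. Over all tested genes the shares lower and higher were 16.7% and 19.8% in gld2-ccf1, 9.23% and 11.1% in gld2-ccr4, and 4.90% each in gld2-parn1, which also stand beside the counts of the other lists. With germline scaling the segregation genes lower and higher were 36 and 7, 22 and 1, and 9 and 0 in that order, and with somatic scaling 47 and 1, 55 and 0, and 56 and 0. The centrosome genes spd-5 and spd-2 fell in gld2-ccf1 by 0.76 and 0.56, spd-5 from 1080 ± 53.2 to 640 ± 33.5 CPM, and spd-5 fell by 0.53 and emb-30 by 0.51 in gld2-ccr4. In gld2-parn1 spd-2 and the kinetochore gene ndc-80 fell by 0.25 and 0.28. Rises in gld2-ccf1 were those of zwl-1 (0.68), a kinetochore gene, and fzr-1 (1.26), an activator of the anaphase-promoting complex. In gld2-ccr4 the gene that rose was apc-10 (0.43), of the same complex.

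Of the replication genes 13 were lower and 9 higher in gld2-ccf1, 9 lower and 1 higher in gld2-ccr4, and 4 lower and 0 higher in gld2-parn1. With germline scaling these were 13 and 6, 6 and 1, and 3 and 0, and with somatic scaling 21, 33 and 33 were lower and 0 higher. In gld2-ccf1 rfc-1 fell by 0.73 and top-1 by 0.70, while pri-2 and rfc-3 rose by 0.44 and 0.37. In gld2-ccr4 rfc-1 fell by 0.43, tim-1 by 0.28, and pri-2 rose by 0.43. In gld2-parn1 rfc-1 fell by 0.25 and top-1 by 0.28. Of the regulators 6 were lower and 9 higher in gld2-ccf1, 7 lower and 2 higher in gld2-ccr4, and 0 lower and 1 higher in gld2-parn1. With germline scaling these were 7 and 8, 6 and 2, and 0 and 1, and with somatic scaling 15 and 1, 27 and 0, and 27 and 0. Of them clk-2 (0.61) and ddb-1 (0.46), the partner of CUL-4, rose and cul-5 and lin-53 (both -0.40) fell in gld2-ccf1. In gld2-ccr4 ddb-1 (0.31) and clk-2 (0.26) rose, and cul-5 (-0.38) and cdk-7 (-0.28) fell. The regulator higher in gld2-parn1 was cdc-25.4 (1.08).

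Markers of other cells moved beside these changes. The 26 oocyte and maternal genes gave a summed level of 17170 to 20160 CPM in wt; the gld2 range was 9963 to 10190 and the others were 10440 to 15260 in gld2-ccf1, 9713 to 9933 in gld2-ccr4 and 10140 to 11530 in gld2-parn1, with 19 of 26 lower in gld2 than in wt. The 15260 CPM belong to gld2-ccf1 replicate 2. The 3 germline lists had 16 of 27 germ granule and small RNA genes, 26 of 36 meiotic chromosome genes and 13 of 15 germline fate genes lower in gld2 than in wt, with medians of -0.38, -0.41 and -0.91. The members' median of -0.42 lay within this range. These 3 lists hold the 78 genes used for germline scaling, so their medians and the effect of that scaling are not separate observations. Medians of the intestine, muscle and epidermis lists were -0.48, -0.27 and -0.63, and that of the neuron list was 0.43. The tested genes of these somatic lists were the 117 used for somatic scaling. Over all tested genes 20.2% were lower, and the median was 0.14.

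The 23 sperm genes summed to 6.09 to 11.15 CPM in wt, where 3 of them were at 0. The gld2 range was 298.8 to 407.1 CPM, and the others were 208.8 to 249.3 in gld2-ccf1, 296.8 to 376.8 in gld2-ccr4 and 481.2 to 589.9 in gld2-parn1. The 17 early embryo genes summed to 272.8 to 280.9 CPM in wt and 189.2 to 209.6 CPM in gld2, where 2 were at 0. The 31 muscle genes summed to 5959 to 6995 CPM in wt and 5144 to 5360 CPM in gld2. Their other ranges were 7077 to 9935 in gld2-ccf1, 8340 to 9635 in gld2-ccr4 and 6473 to 8861 in gld2-parn1. The 28 intestine genes summed to 3804 to 4280 CPM in wt and 3234 to 3256 CPM in gld2. In the double mutants they summed to 3464 to 3630, 3724 to 3776 and 3220 to 3422 CPM in the same order. The 30 neuron genes summed to 165.4 to 188.9 CPM in wt and 202.0 to 223.5 CPM in gld2, and the 30 epidermis and cuticle genes to 7143 to 9847 and 6667 to 7261 CPM. Of the neuron genes 11 were higher and 1 lower in gld2 than in wt, and of 28 tested epidermis genes 1 was higher and 10 lower. Muscle genes had 1 higher and 11 lower, and intestine genes 1 higher and 15 lower. Over all tested genes 28.8% were higher and 20.2% lower. The part of these cell types in the changes of the members was not tested.

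**Figure D5:**
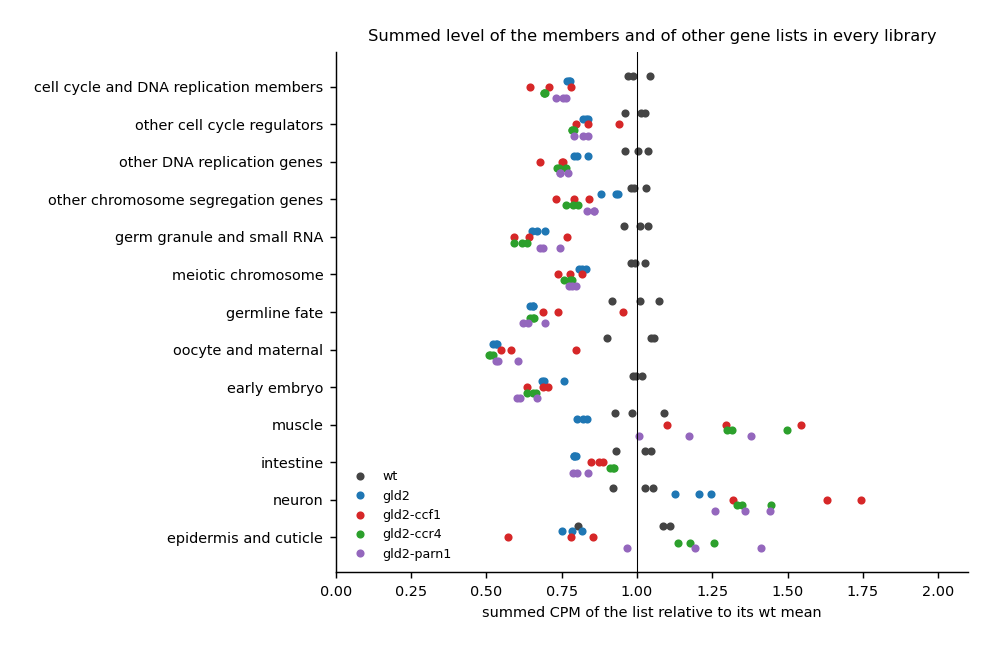
Summed CPM of the members and of 12 other gene lists (the sperm list is not drawn) in every library (points), divided by the list's mean in wt (vertical line at 1); colours mark the genotypes. The members lie below the wt mean in all mutant libraries, as do the other pathway, germline, oocyte, early embryo and intestine lists. The muscle list is higher in the double mutants than in gld2.

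Several members overlap a gene on the other strand, and whether reads were counted by strand is not given in the sources used here. The longest overlaps were those of mcm-6 with srxa-10 (1278 bases) and of cdk-2 with the antisense RNA gene anr-45 (1121 bases). Over all libraries srxa-10 had 1573 counts beside 293979 of mcm-6, and anr-45 had 456 beside 13098 of cdk-2.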

How the data were processed

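The deposited table holds raw counts of reads per gene, made by the authors from strand-specific libraries of total RNA depleted of ribosomal RNA, per the labels' protocols. The submitters' processing notes name the build WBcel235 and, without their roles, DESeq2 1.18.1, Subread 1.4.6-p4 with featureCounts, STAR 2.5.2b and FastQC; counting by strand and the treatment of reads that match several genes are not given in the sources used here. A deposited normalized table was not used.

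These counts went into edgeR 4.0.16 (R 4.3.3) with filterByExpr, TMM factors, a robust glmQLFit of 5 means to the 15 libraries (residual degrees of freedom 10), and glmQLFTest (two-sided) with Benjamini-Hochberg adjustment over 16888 genes in each of 10 comparisons, called at 0.05. The common biological coefficient of variation was 0.178. A standard error is the absolute log2 fold change over the square root of F. The script was tested on simulated data.

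Each genotype's group came from the labels. Alternatives were RLE, somatic and germline gene scaling, no filter on low counts, DESeq2 1.42.0, a replicate block, and libraries left out. Levels per kb use the summed exon length. Of 442 listed symbols 431 matched 1 gene. The members, lists and tests were chosen with earlier results of these data known. All 36 members could be named; values per library are given for the 2 members of each role with the smallest adjusted p between gld2 and wt, those called against most of their role, and the 3 with the smallest adjusted p in each double mutant against gld2; other values per library were added after seeing them. From each pathway list the 2 genes per direction with the smallest adjusted p are named. Correlations of log2 CPM within a genotype ran from 0.976 to 0.983, and no 2 libraries of the same genotype were copies (chi-square per degree of freedom at least 13.4).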

Additional observations from a re-analysis of the deposited data

How the results depend on the processing

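Of the members called under TMM, 23 of 29 between gld2 and wt, 15 of 21 in gld2-ccf1 against gld2, 10 of 17 in gld2-ccr4 against gld2 and 0 of 1 in gld2-parn1 against gld2 kept their call and direction with RLE scaling, without the low count filter, with DESeq2, with the replicate block and without any 1 library or the libraries above 4% ribosomal RNA. The scaling moved most. With somatic scaling the members higher and lower became 5 and 12 between gld2 and wt, 0 and 24 in gld2-ccf1 against gld2, 0 and 34 in gld2-ccr4 against gld2, and the lower ones 33 in gld2-parn1 against gld2. It left 0 higher in gld2-ccr4 and in gld2-parn1 against wt and in gld2-ccr4 against gld2-parn1, 12 higher and 0 lower in gld2-ccf1 against gld2-ccr4, and 1 lower in gld2-ccf1 against gld2-parn1. Beside the counts of 0 higher stood 20.5%, 21.9% and 2.95% of all tested genes in the order named first. Lower calls against wt in the double mutants were all kept with somatic scaling. With germline scaling the counts higher and lower became 13 and 8 between gld2 and wt, and against wt 5 and 10 for gld2-ccf1, 8 and 13 for gld2-ccr4, 11 and 9 for gld2-parn1, and 3 were lower in gld2-parn1 against gld2 and 5 in gld2-ccf1 against gld2-ccr4. Beside the 3 and the 5 lower stood 4.83% and 14.1% of all tested genes. The cause of these shifts was not tested.

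Without the low count filter 1 member was higher between gld2 and wt and 2 were lower in gld2-parn1 against gld2. RLE scaling gave 0 lower there and 4 higher in gld2-ccf1 against gld2-ccr4. Without the libraries above 4% ribosomal RNA 1 member was higher between gld2 and wt, 2 were lower in gld2-parn1 against gld2 and 7 in gld2-ccr4 against gld2-parn1. Leaving out 1 library gave 4 to 8 higher in gld2-ccf1 against gld2, 9 to 12 lower in gld2-ccr4 against gld2, 0 to 1 lower in gld2-parn1 against gld2, 2 to 10 higher and 1 to 4 lower in gld2-ccf1 against gld2-ccr4, 4 to 8 higher in gld2-ccf1 against gld2-parn1, and 0 to 4 lower in gld2-ccr4 against gld2-parn1.

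Sign changes are given for values called under TMM or under the alternative; other values that were called under neither also turned. Signs so defined turned with germline scaling between gld2 and wt for cya-1 (0.04), cdc-6 (0.12), mcm-2 (0.03), mcm-4 (0.02), mcm-5 (0.22), mcm-6 (0.07), pcn-1 (0.24), div-1 (0.22), plk-1 (0.43), icp-1 (0.29), hcp-3 (0.10) and cul-1 (0.23), and with somatic scaling for pcn-1 (0.01). The medians of all tested genes between gld2 and wt were 0.59 with germline and 0.36 with somatic scaling. With somatic scaling signs turned in gld2-ccf1 against gld2 for cyb-1 (-0.09). In gld2-ccr4 against gld2 they turned for cyb-1 (-0.45), cdc-25.1 (-0.15), orc-1 (-0.18), mcm-4 (-0.54) and rnr-2 (-0.32). In gld2-parn1 against gld2 they turned for cdk-1 (-0.40), cyb-1 (-0.35), cdc-25.1 (-0.35), rnr-1 (-0.34), div-1 (-0.38), air-1 (-0.40) and air-2 (-0.40). In gld2-ccf1 against gld2-ccr4 mcm-7 became -0.22 without the libraries above 4% ribosomal RNA, and leaving out 1 library gave -0.24 (without gld2-ccf1 replicate 2) to 0.28.

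Same-numbered libraries of different genotypes did not deviate together: over 30 pairs the correlation of their deviations ran from -0.0967 to 0.0922. The replicate block gave 3 higher and 26 lower members between gld2 and wt, 6 and 14 in gld2-ccf1 against gld2, and 3 and 14 in gld2-ccr4 against gld2. Depth was no limit for single members, whose lowest count was 550, but with 3 libraries a genotype the smaller changes pass or miss the threshold with 1 library.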
